A study of Mus musculus with 8 samples.

Results

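Car3, Fabp4 and 8 other genes of adipocytes and fatty acid metabolism (Fasn, Scd1, Lpl, Cd36, Plin1, Cidea, Adipoq and Retn) were followed across all 8 arrays of a study of mouse 2-cell embryos. Car3 and Fabp4 were picked from these same arrays, because their log2 values differed from C57BL/6 in opposite directions in the KDM1A TG and nonTG groups. The other 8 were picked for what they do, to see whether genes of fat tissue moved with them. The 10 genes are 10 of 14995 genes that had a probeset carrying their symbol alone, and each was represented by its brightest probeset. All 10 had a mean log2 value above 2.07, the 30th percentile of all probesets, and so were among the 11444 genes tested.

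Each array held RNA from 1 pool of embryos, with 26 embryos per pool on average, and the groups differ in the sire. The first group (3 arrays) had sires carrying a transgene for KDM1A, a histone H3 lysine 4 demethylase (KDM1A TG). The second (2 arrays) had their non-transgenic littermates as sires (nonTG), and the third (3 arrays) had C57BL/6 sires. All dams were C57BL/6 females given 5 IU of eCG and hCG, and embryos were washed out of the oviduct between 46 and 48 hours after hCG. The titles write TG3 and nonTG3 for the transgenic and littermate samples. The promoter of the transgene, the age of the animals, the genotype of the embryos and the number of males behind each pool were not named in the sources used here. Because of this, p-values capture spread among these pools alone, and that spread may be technical.

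In fat cells, fatty acids are made from acetyl-CoA by Fasn and desaturated by Scd1, or freed from circulating lipoproteins by Lpl and taken up with the help of Cd36. Fabp4 carries them through the cytoplasm, Plin1 and Cidea coat lipid droplets, and Adipoq and Retn encode the hormones adiponectin and resistin. Car3 encodes a cytosolic carbonic anhydrase that is abundant in fat, skeletal muscle and liver. Several of these genes are also used elsewhere: Fabp4 and Cd36 in capillary endothelium and macrophages, Lpl in macrophages, and Fasn and Scd1 in many dividing cells. RNA was measured in whole pools, so fewer cells of a type and less RNA per cell cannot be told apart.

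Car3 had log2 values of 7.08, 5.93 and 6.20 in KDM1A TG replicates 1, 2 and 3, 3.75 and 2.14 in nonTG replicates 1 and 2, and 4.05, 3.33 and 4.23 in C57BL/6 replicates 1, 2 and 3. Every KDM1A TG array lay above every other array, while the nonTG and C57BL/6 arrays overlapped. The KDM1A TG mean of 6.41 ± 0.60 (SD, n = 3) stood 2.53 above the C57BL/6 mean of 3.87 ± 0.47 (SD, n = 3), which is 5.79-fold. The nonTG mean was 2.95 ± 1.14 (SD, n = 2), a log2 change of -0.92 from C57BL/6. That value rests on nonTG replicate 2, since it was -0.12 without that array and -1.73 without nonTG replicate 1. These values chose the gene and are given as a description, with no test.

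A second Car3 probeset, dimmer over all arrays, gave a check of the same RNA with other probes. It read 5.64, 4.20 and 4.89 in KDM1A TG, 2.59 and 2.47 in nonTG, and 3.36, 2.83 and 3.42 in C57BL/6. Its log2 changes from C57BL/6 were 1.71 in KDM1A TG and -0.67 in nonTG, smaller than those of the brighter probeset and in the same directions. On this probeset the 3 groups did not overlap, with KDM1A TG on top and nonTG at the bottom.

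Fabp4 had log2 values of 6.57, 5.57 and 5.36 in KDM1A TG, 2.05 and 1.97 in nonTG, and 4.56, 4.66 and 2.62 in C57BL/6. No group overlapped another, and the order was KDM1A TG, C57BL/6, nonTG. Its mean was 5.83 ± 0.65 (SD, n = 3) in KDM1A TG against 3.95 ± 1.15 (SD, n = 3) in C57BL/6, a log2 change of 1.88 (3.69-fold). Without C57BL/6 replicate 3, whose value was far from the other C57BL/6 arrays, that change was 1.22. The nonTG mean of 2.01 ± 0.05 (SD, n = 2) lay under the filter level of 2.07, and the log2 change as measured was -1.94. With nonTG counted at the filter level, Fabp4 was 3.68-fold lower in nonTG than in C57BL/6. The filter level is a percentile of all probesets, so this fold is no bound. That fold was 5.84 without C57BL/6 replicate 3, 2.88 without replicate 2 and 2.98 without replicate 1 of C57BL/6. These values also chose the gene and carry no test.

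**Figure D1:**
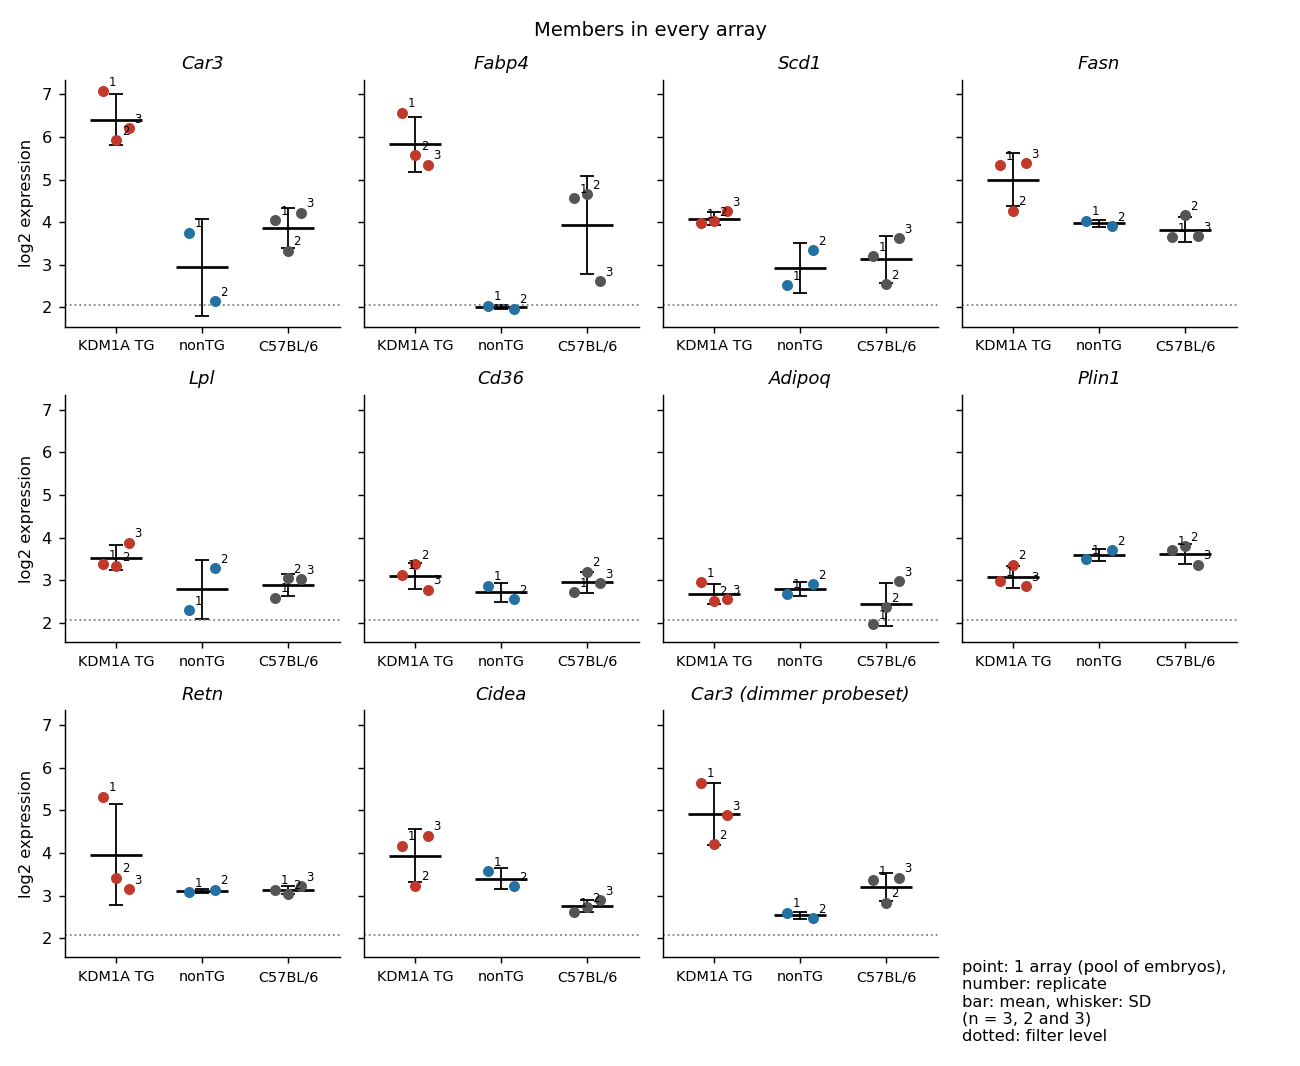
Log2 expression (vertical axis) of the 10 genes and of the second Car3 probeset in KDM1A TG, nonTG and C57BL/6 arrays, with 1 point per array, its replicate number, and the mean and SD of each group. All KDM1A TG points of Car3 and Fabp4 lie above the other arrays, both nonTG points of Fabp4 lie just under the dotted filter level of 2.07, and Retn is high in KDM1A TG replicate 1 alone. Levels of different genes come from different probes and are not compared.

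Within groups, Car3 and Fabp4 did not always run together. Both were highest of the KDM1A TG arrays in replicate 1. Among the C57BL/6 arrays, however, replicate 3 had the highest Car3 value (4.23) and the lowest Fabp4 value (2.62). The nonTG arrays lay far apart on the brighter Car3 probeset (3.75 and 2.14) and close together for Fabp4 (2.05 and 1.97). Both of these Fabp4 values were under the filter level of 2.07, where a difference between arrays may not show. On the dimmer Car3 probeset the nonTG arrays lay close together too (2.59 and 2.47).

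Of the 8 genes picked for function, 0 passed limma's test (adjusted p under 0.05 over all 11444 genes) in any of the 3 comparisons, beside 0.725% of all genes in KDM1A TG against C57BL/6, 0.131% in nonTG against C57BL/6, and 0.0437% between KDM1A TG and nonTG. At an unadjusted p under 0.05 the counts were 4, 0 and 4 of 8, against 14.2%, 8.22% and 6.41% of all genes. The comparisons share arrays with each other, so their values are set side by side below and are not independent.

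Between KDM1A TG and C57BL/6 embryos, 7 of the 8 had a log2 change above 0, against 64.9% of all genes, and their median was 0.74, against 0.18 over all genes. For 4 of them (Fasn, Scd1, Lpl and Cidea) all KDM1A TG arrays lay above all C57BL/6 arrays, against 14.5% of all genes that were higher without overlap. Between nonTG and C57BL/6 embryos, 3 of the 8 were above 0 (53.2% of all genes were), and the median was -0.02, against 0.04 over all genes. Cidea was the 1 gene of the 8 whose nonTG and C57BL/6 arrays did not overlap, and 15.4% of all genes were higher in nonTG without overlap.

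Fatty acid synthesis was represented by Fasn and Scd1. Fasn, the enzyme that builds palmitate, had log2 values of 5.34, 4.28 and 5.39 in KDM1A TG, 4.04 and 3.91 in nonTG, and 3.65, 4.16 and 3.67 in C57BL/6. KDM1A TG replicate 2 was the lowest of its group and stood only just above the highest array of the other groups. The log2 change of Fasn was 1.17 for KDM1A TG against C57BL/6 (2.26-fold, 95% interval 1.43 to 3.56, adjusted p = 0.0606) and 0.15 for nonTG against C57BL/6 (adjusted p = 0.92). The first value passed under 6 of the 20 alternatives, among them without KDM1A TG replicate 2 (1.54, adjusted p = 0.0193) and without C57BL/6 replicate 2 (1.34, adjusted p = 0.0268). It did not pass without C57BL/6 replicate 1 or 3 or KDM1A TG replicate 1 (adjusted p = 0.304, 0.227 and 0.393). After quantile normalization and cyclic loess it was 0.94 and 0.90 (adjusted p = 0.390 and 0.399). With KDM1A TG replicate 3 left out it was 0.98 (adjusted p = 0.733), and with replicates 1 and 3 of KDM1A TG both left out it was 0.45 (adjusted p = 0.998).

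Scd1, which places the double bond of oleate, had log2 values of 3.98, 4.02 and 4.25 in KDM1A TG, 2.52 and 3.35 in nonTG, and 3.21, 2.54 and 3.63 in C57BL/6. The KDM1A TG arrays were the tightest of the 3 groups and lay above all others. The log2 change was 0.96 against C57BL/6 (1.94-fold, 95% interval 1.23 to 3.07, adjusted p = 0.165) and 1.15 against nonTG (adjusted p = 0.511). For nonTG against C57BL/6 it was -0.19 (adjusted p = 0.89), with arrays that overlapped.

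Uptake was represented by Lpl and Cd36. Lpl, the lipase anchored to capillary walls, had log2 values of 3.38, 3.33 and 3.88 in KDM1A TG, 2.29 and 3.28 in nonTG, and 2.59, 3.04 and 3.02 in C57BL/6. KDM1A TG lay above the other groups by a narrow margin, and the nonTG arrays spanned the C57BL/6 range. Its log2 change was 0.65 against C57BL/6 (95% interval -0.01 to 1.30, adjusted p = 0.358). Cd36, a fatty acid translocase, had 3.13, 3.38 and 2.77 in KDM1A TG, 2.87 and 2.56 in nonTG, and 2.72, 3.20 and 2.92 in C57BL/6. The 3 groups of Cd36 values overlapped, and the log2 change of KDM1A TG from C57BL/6 was 0.15 (95% interval -0.50 to 0.79, adjusted p = 0.835).

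The lipid droplet genes differed from each other. Plin1, the perilipin that coats droplets of fat cells, had log2 values of 2.98, 3.36 and 2.86 in KDM1A TG, 3.49 and 3.70 in nonTG, and 3.70, 3.80 and 3.36 in C57BL/6. It was the 1 gene of the 8 with a negative change in KDM1A TG (-0.55 against C57BL/6, 95% interval -1.19 to 0.09, adjusted p = 0.422). KDM1A TG replicate 2 and C57BL/6 replicate 3 were level at 3.36.

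Cidea, a droplet protein known from brown fat, had log2 values of 4.17, 3.23 and 4.40 in KDM1A TG, 3.57 and 3.22 in nonTG, and 2.61, 2.73 and 2.89 in C57BL/6. All 5 KDM1A TG and nonTG arrays lay above the C57BL/6 arrays. The log2 change from C57BL/6 was 1.19 in KDM1A TG (2.28-fold, 95% interval 1.45 to 3.60, adjusted p = 0.0565) and 0.65 in nonTG (95% interval -0.09 to 1.38, adjusted p = 0.663). The KDM1A TG value was 1.54 (adjusted p = 0.0193) with KDM1A TG replicate 2 left out. It was 0.96 (adjusted p = 0.736) with replicate 3 of that group left out, and 0.49 (adjusted p = 0.998) with both of replicates 1 and 3 left out.

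Of the hormones of fat cells, Adipoq had log2 values of 2.95, 2.52 and 2.55 in KDM1A TG, 2.69 and 2.91 in nonTG, and 1.97, 2.37 and 2.97 in C57BL/6. The C57BL/6 arrays alone spanned the values of both other groups. Its log2 change was 0.23 in KDM1A TG (95% interval -0.42 to 0.88, adjusted p = 0.737) and 0.36 in nonTG (95% interval -0.37 to 1.09, adjusted p = 0.795), each against C57BL/6. Retn had 5.32, 3.42 and 3.15 in KDM1A TG, 3.07 and 3.13 in nonTG, and 3.14, 3.03 and 3.21 in C57BL/6. KDM1A TG replicate 1 stood apart, and the other 7 arrays lay between 3.03 and 3.42. The log2 change of Retn from C57BL/6 was 0.84 in KDM1A TG (adjusted p = 0.27) and 0.16 without that array (adjusted p = 0.915).

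**Figure D2:**
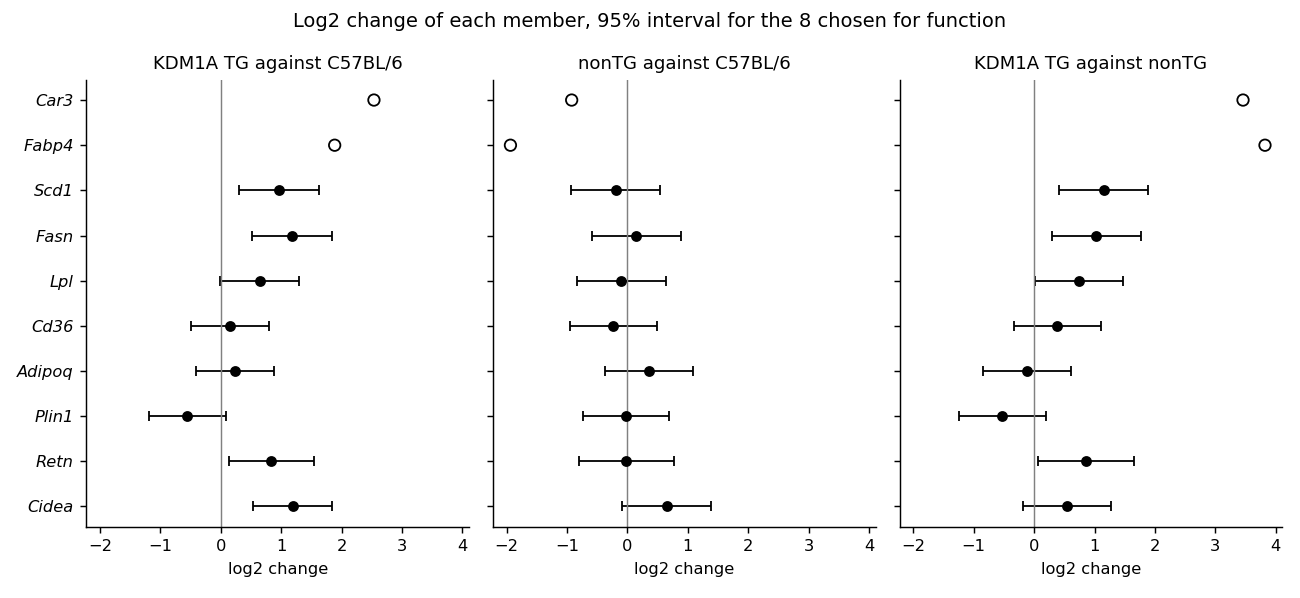
Log2 change (horizontal axis) of each gene in the 3 comparisons, with 95% intervals for the 8 genes picked for function and open circles, without interval, for Car3 and Fabp4, which were picked on these values. For nonTG against C57BL/6 all 8 intervals include 0.

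For KDM1A TG against nonTG, Car3 had a log2 change of 3.46 and Fabp4 one of 3.82. With nonTG counted at the filter level, Fabp4 was 13.6-fold higher in KDM1A TG. The Car3 value was 4.26 without nonTG replicate 1 and 2.65 without nonTG replicate 2. Of the other 8 genes, 6 were above 0, against 65.4% of all genes. Of the 8 genes, Scd1, Fasn, Lpl and Retn had arrays that did not overlap and were higher in KDM1A TG (16.0% of all genes were), with log2 changes of 1.15, 1.03, 0.75 and 0.86. The Retn value was 0.18 without KDM1A TG replicate 1. Without nonTG replicate 1 the Lpl value was 0.25 and the Scd1 value 0.74, and Fasn stood at 0.30 with KDM1A TG replicates 1 and 3 both left out. Plin1 was lower without overlap (-0.53, adjusted p = 0.847, against 6.38% of all genes lower without overlap). The remaining log2 changes were 0.38 for Cd36, -0.12 for Adipoq and 0.54 for Cidea.

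Ordered by mean level, Fabp4, Car3, Scd1, Lpl, Cd36 and Retn ran KDM1A TG, C57BL/6, nonTG. By brightest probeset, of these 6 only Fabp4 had nonTG arrays apart from the C57BL/6 arrays. On the dimmer Car3 probeset the nonTG arrays also lay below those of C57BL/6. Fasn and Cidea ran KDM1A TG, nonTG, C57BL/6, Adipoq nonTG, KDM1A TG, C57BL/6, and Plin1 C57BL/6, nonTG, KDM1A TG. Among the 8 genes picked for function, no pair of neighbouring means differed past the threshold.

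The wider pathways were read from 7 lists of other genes, holding 158 genes of which 98 had a probeset of their own and 86 were tested. By limma, 0 of the 86 passed in KDM1A TG against C57BL/6 and 0 between KDM1A TG and nonTG, while 1, Car5b, passed as higher in nonTG against C57BL/6, where 0.0699% of all genes did. The median log2 change of the 86 was 0.32 in KDM1A TG and 0.17 in nonTG, each against C57BL/6, and 0.17 between KDM1A TG and nonTG. Over all genes these medians were 0.18, 0.04 and 0.16, and 64.9%, 53.2% and 65.4% of all genes were above 0.

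Of the other adipocyte markers, 28 were listed, 11 had a probeset of their own and 9 were tested. For KDM1A TG against C57BL/6, 6 of the 9 were above 0 with a median of 0.24, and for nonTG against C57BL/6, 8 of 9 with a median of 0.18. The smallest p for KDM1A TG against C57BL/6 belonged to Gpam, an acyltransferase of triglyceride synthesis (log2 change 1.07, adjusted p = 0.12), the lipase Pnpla2 (0.77, adjusted p = 0.277) and the acyltransferase Dgat2 (0.69, adjusted p = 0.339). For nonTG against C57BL/6 the same 3 genes had 0.49, 0.28 and 0.58 (adjusted p = 0.728, 0.838 and 0.689). For KDM1A TG against nonTG the smallest p belonged to the glucose transporter Slc2a4 (-0.71), Orm1 (-0.65) and Gpam (0.58, adjusted p = 0.775, 0.842 and 0.847).

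Fatty acid synthesis and desaturation genes were above 0 for 18 of 20 in KDM1A TG against C57BL/6 (median 0.31) and for 13 of 20 in nonTG against C57BL/6 (median 0.14). In KDM1A TG the delta-6 desaturase Fads2 had a log2 change of 1.20 (adjusted p = 0.074), the enoyl-CoA reductase Tecr 0.91 (adjusted p = 0.198) and the elongase Elovl5 0.87 (adjusted p = 0.216). In nonTG the dehydratase Hacd3 had 0.95 (adjusted p = 0.409), Elovl5 0.70 (adjusted p = 0.631) and Tecr 0.68 (adjusted p = 0.646). Uptake, binding and activation genes were above 0 for 7 of 12 in KDM1A TG (median 0.39) and 6 of 12 in nonTG (median -0.03). Among them the acyl-CoA synthetases Acsl4 and Acsl5 and the transporter Slc27a1 had log2 changes of 0.96, 0.74 and 0.68 in KDM1A TG (adjusted p = 0.149, 0.314 and 0.337). Fabp5, a relative of Fabp4, had the smallest p in nonTG, with a log2 change of 0.85 (adjusted p = 0.53), opposite in sign to that of Fabp4 (-1.94).

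Fatty acid oxidation genes, which break fatty acids down in mitochondria and peroxisomes, had a median of 0.65 in KDM1A TG (16 of 18 above 0) and of 0.40 in nonTG (16 of 18 above 0), each against C57BL/6. Relative to all genes, these medians were 0.46 and 0.37, and over the alternatives they spanned 0.023 to 0.68 and 0.056 to 0.50, the lowest of each with the oviduct marker covariate described below. The carnitine palmitoyltransferase Cpt1a had a log2 change of 1.03 in KDM1A TG and the dehydrogenases Hadh and Acadvl 0.95 and 0.89 (adjusted p = 0.147, 0.192 and 0.192). In nonTG, Acadl, Hadh and Cpt2 had 0.93, 0.75 and 0.71 (adjusted p = 0.471, 0.617 and 0.624). For KDM1A TG against nonTG the median was 0.25, with Ehhadh at -0.86, Acadvl at 0.82 and Acaa2 at 0.81 (adjusted p = 0.77, 0.772 and 0.772). Triglyceride storage and droplet genes had medians of 0.25 in KDM1A TG (10 of 15 above 0) and 0.18 in nonTG (9 of 15). Adipogenic transcription factors had medians of 0.14 (6 of 11) and -0.04 (5 of 11), and Klf15 had the smallest p in KDM1A TG (log2 change 0.49, adjusted p = 0.469).

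Of 15 other carbonic anhydrases, 6 had a probeset of their own and all 6 were tested. Their median relative to all genes was 0.18 in KDM1A TG and 0.25 in nonTG, and spanned -0.20 to 1.02 and -0.04 to 1.19 over the alternatives. Car5b, the mitochondrial enzyme, rose in nonTG against C57BL/6, with a log2 change of 1.72 ± 0.40 (SE, adjusted p = 0.0412), where Car3 had -0.92. Its log2 values were 4.25, 4.66 and 5.58 in KDM1A TG, 4.33 and 6.13 in nonTG, and 3.103, 3.35 and 4.07 in C57BL/6, so nonTG replicate 2, the array with the lowest Car3, had the highest Car5b. Without that array the change was 0.82 (adjusted p = 0.804). It also did not pass without C57BL/6 replicate 1 (1.52, adjusted p = 0.166) or KDM1A TG replicate 2 or 3 (1.72 in both, adjusted p = 0.148 and 0.0541), and it was 2.62 without nonTG replicate 1. After quantile normalization and cyclic loess it was 1.73 and 1.67 (adjusted p = 0.201 and 0.253). The call was also lost with the filter at the 50th percentile (adjusted p = 0.11), the arrays of the 2 groups alone (0.119), the mean of all probesets (0.0977), the oviduct marker covariate (0.564), and with KDM1A TG replicates 1 and 3 both left out (0.119). In KDM1A TG against C57BL/6 Car5b had 1.32 (adjusted p = 0.0513) and the erythrocyte and epithelial enzyme Car2 had 1.43 (adjusted p = 0.0534). Car9, a membrane enzyme, had -0.52 (adjusted p = 0.454). Car2 in nonTG had 1.27 (adjusted p = 0.315).

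**Figure D3:**
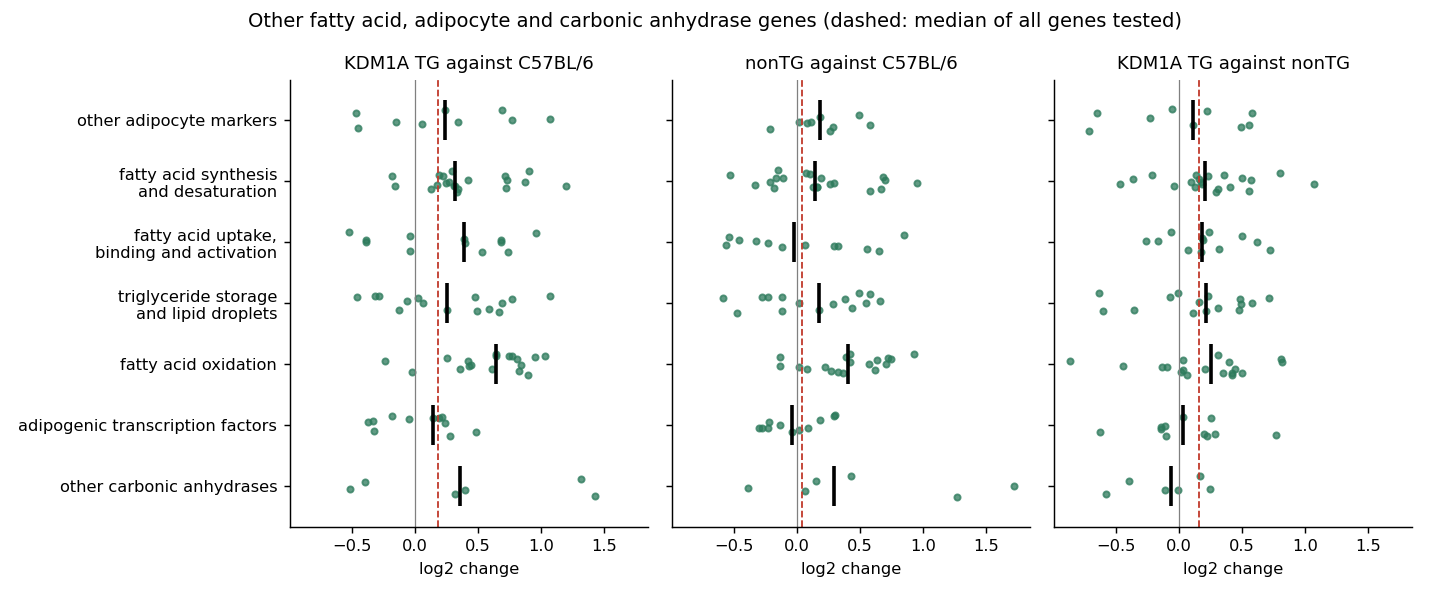
Log2 change (horizontal axis) of each tested gene of the 7 lists in the 3 comparisons, with 1 point per gene, a black bar at each list's median and a dashed line at the median of all 11444 genes. In the KDM1A TG against C57BL/6 panel the bar of fatty acid oxidation lies at 0.65 and that of the adipogenic transcription factors at 0.14.

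Markers of other cells that a flushed pool could hold were read in the same arrays. Of all genes, 64.9% were above 0 in KDM1A TG against C57BL/6, 53.2% in nonTG against C57BL/6 and 65.4% in KDM1A TG against nonTG. At an unadjusted p under 0.05 by limma the shares were 14.2%, 8.22% and 6.41%. Oocyte and 2-cell markers were present, with 16 of 17 genes above the filter level, among them Dppa3, Bmp15 and Zp3 (means of 9.18, 5.59 and 4.85 over the 8 arrays). Their level, as the mean of their log2 values, ran from 4.73 to 5.36 in KDM1A TG, 4.06 to 4.79 in nonTG and 4.53 to 5.47 in C57BL/6. All 16 tested markers of this list had a log2 change below 0 in nonTG against C57BL/6 (median -0.62, 5 with an unadjusted p under 0.05), and 15 of 16 were above 0 in KDM1A TG against nonTG (median 0.56). Both of these comparisons use the same nonTG arrays, where the list stood at 4.06 in replicate 1 and 4.79 in replicate 2. Car3 ran the other way between those arrays, at 3.75 and 2.14. Relative to all genes, the medians of the list spanned -1.14 to -0.07 and -0.03 to 1.05 over the alternatives. In both comparisons the list had the sign of Car3 and Fabp4, which were picked for their signs, and a link to them was not tested. In KDM1A TG against C57BL/6, where Car3 and Fabp4 were higher, 7 of 16 were above 0 (median -0.21). Oviduct epithelial markers such as Foxj1 and Krt19 (5.48 and 5.63) were also above the filter level, for 18 of 18 genes. They ran from 5.43 to 6.14 in KDM1A TG, 5.90 to 5.94 in nonTG and 4.95 to 5.73 in C57BL/6. Both nonTG arrays and KDM1A TG replicates 1 and 3 lay above every C57BL/6 array. Against C57BL/6, 17 of 18 were above 0 in KDM1A TG (median 0.54) and 17 of 18 in nonTG (median 0.59).

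Smooth muscle and stromal markers ran from 4.08 to 5.59 in KDM1A TG, 3.75 to 4.95 in nonTG and 3.53 to 4.17 in C57BL/6. The 5.59 was KDM1A TG replicate 3, while replicates 1 and 2 of that group stood at 4.35 and 4.08. All 21 were above 0 in KDM1A TG against C57BL/6 (median 0.71), beside 64.9% of all genes. By limma 11 of them had an unadjusted p under 0.05, beside 14.2% of all genes. In nonTG against C57BL/6, 16 of 21 were above 0 (median 0.44), beside 53.2% of all genes. In KDM1A TG against nonTG, 18 of 21 were (median 0.32), beside 65.4%. Relative to all genes, the medians of these comparisons spanned -0.03 to 0.82, -0.19 to 1.05 and -0.44 to 0.61 over the alternatives, in that order. Of the 8 genes picked for function, 7 were above 0 in KDM1A TG against C57BL/6 too, as were 64.9% of all genes. Car3 and Fabp4 were above 0 there because they were picked for it. A link between those genes and this list was not tested. Macrophage markers, whose cells also use Fabp4, ran from 3.62 to 4.38 in KDM1A TG, 3.37 to 3.97 in nonTG and 3.25 to 4.04 in C57BL/6. Of 13, 12 were above 0 in KDM1A TG against C57BL/6 (median 0.31), 7 in nonTG against C57BL/6 (median 0.03) and 11 in KDM1A TG against nonTG (median 0.31). By limma 0 of the 13 passed, beside the 0.725%, 0.131% and 0.0437% of all genes that did in these 3 comparisons. At an unadjusted p under 0.05 the counts were 1, 0 and 1 of 13, beside 14.2%, 8.22% and 6.41% of all genes.

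Of the marker genes, Acta2 (smooth muscle) and Sult1d1 (oviduct) passed by limma for KDM1A TG against C57BL/6 (adjusted p = 0.0155 and 0.0471). They were 1 of 21 smooth muscle and stromal and 1 of 18 oviduct markers tested, beside 0.725% of all genes. No gene of the other marker lists passed. Acta2 lost its call when KDM1A TG replicate 3 (adjusted p = 0.8), C57BL/6 replicate 3 (0.248) or KDM1A TG replicates 1 and 3 (0.998) were left out. It also lost it after quantile normalization (0.353) and cyclic loess (0.391), with trend and robust variance (0.16) and with the oviduct marker covariate (0.729). Among the 8 arrays left out in turn, Sult1d1 kept its call only without C57BL/6 replicate 2 (adjusted p = 0.00297), and it lost the call under quantile (0.448) and cyclic loess normalization (0.469), the 50th percentile filter (0.074), the 2 groups alone (0.061), the mean of all probesets (0.0667) and the covariate (0.712). For nonTG against C57BL/6 Sult1d1 passed as well (adjusted p = 0.0122), as 1 of the 18 oviduct markers, beside 0.131% of all genes. That call was lost without nonTG replicate 2 (adjusted p = 0.392), C57BL/6 replicate 3 (0.123) or KDM1A TG replicate 2 (0.0674), after quantile normalization (0.155) and cyclic loess (0.172), and with the oviduct marker covariate (0.856).

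Endothelial markers ran from 2.88 to 3.43 in KDM1A TG, 3.19 to 3.24 in nonTG and 2.82 to 3.18 in C57BL/6. Of 10, 7 were above the filter level, and Tek and Flt1 were below it (means of 1.80 and 2.03). In KDM1A TG against C57BL/6, 4 of the 7 were above 0 (median 0.0055), and in nonTG against C57BL/6, 5 of 7 (median 0.15). In KDM1A TG against nonTG, 3 of 7 were (median -0.22).

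Skeletal muscle markers, whose cells use Car3, ran from 2.66 to 2.79 in KDM1A TG, 2.92 to 3.003 in nonTG and 2.72 to 3.001 in C57BL/6. Of 15, 11 were above the filter level and Myh4 stood at 1.42. In KDM1A TG against C57BL/6, 4 of the 11 were above 0 (median -0.06), and in nonTG against C57BL/6, 7 of 11 (median 0.09). The other adipocyte markers ran from 3.16 to 3.88 in KDM1A TG, 3.39 to 3.54 in nonTG and 3.06 to 3.41 in C57BL/6. Of their defining genes, Cfd, Pparg, Lep and Lipe were not analysed here, since no probeset carried their symbol alone, and Lgals12 and Acvr1c were under the filter level (means of 1.95 and 2.03). Cumulus and granulosa markers ran from 2.36 to 3.18, 2.52 to 2.61 and 2.43 to 3.42 in the same order. Of 8, 3 were above 0 in KDM1A TG and 3 in nonTG, each against C57BL/6 (medians -0.25 and -0.29). In KDM1A TG against nonTG, 3 of 8 were (median -0.10). The part of any of these cells in the values of Car3 and Fabp4 was not tested. When the mean of the oviduct markers entered as a covariate, an alternative added after seeing the data, the log2 change from C57BL/6 was 2.53 for Car3 and 1.03 for Fabp4 in KDM1A TG, and -0.93 and -2.82 in nonTG. In the same fit the KDM1A TG changes from C57BL/6 were 0.49 for Fasn, 0.77 for Cidea, 0.50 for Lpl and 1.35 for Scd1 (adjusted p = 0.75, 0.712, 0.771 and 0.52).

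**Figure D4:**
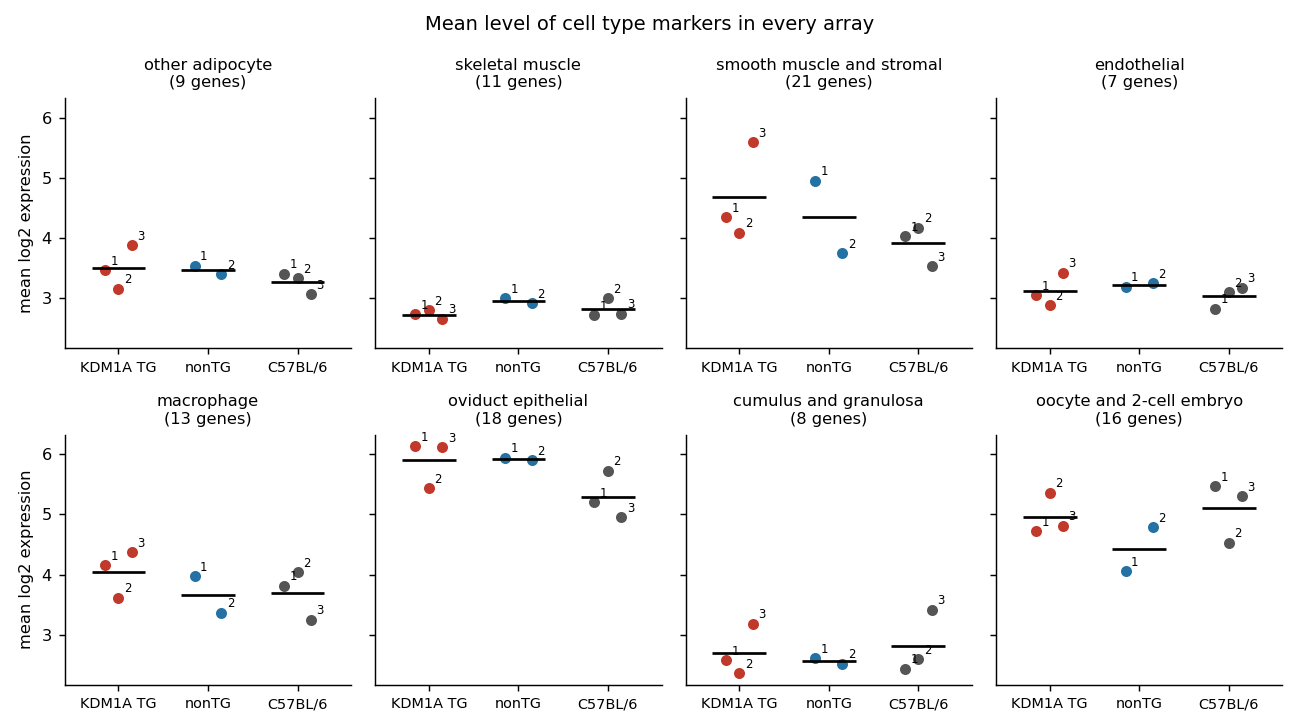
Mean log2 level (vertical axis) of 8 cell type marker lists in each array, with 1 point per array, its replicate number and a bar at the group mean. Oviduct epithelial markers lie between 5.43 and 6.14 in the KDM1A TG and nonTG arrays and between 4.95 and 5.73 in C57BL/6, while skeletal muscle markers lie between 2.66 and 3.003 in all arrays.

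To see which genes had values most like theirs, the log2 values of each tested gene were centred and set against those of Car3 and Fabp4, over the 8 arrays. Values were not scaled, so a gene with the same pattern but smaller changes also comes out as distant. The root mean square difference between Car3 and Fabp4 was 0.95. Fabp4 was the second closest gene to Car3 among 11443, and Car3 was the closest to Fabp4, which follows in part from both having been picked for the same pattern. Closest to Car3 was Insl6, an insulin-like peptide gene known from male germ cells (difference 0.91), followed after Fabp4 by the pseudogenes Stxbp3-ps and Rps19-ps3 and the apolipoprotein gene Apoc1 (0.987, 1.005 and 1.038). Insl6 read 4.61, 4.44 and 4.89 in KDM1A TG, 3.77 and 2.73 in nonTG, and 3.17, 3.105 and 3.004 in C57BL/6, high in KDM1A TG and with nonTG on both sides of C57BL/6. After Car3, the genes closest to Fabp4 were Isoc2a, AF067061, the ribosome-related Wdr18 and the nuclear protein gene Nkap (0.99, 1.09, 1.11 and 1.13). Among the 8 genes picked for function, Fasn was closest to both, at rank 23 for Car3 and 60 for Fabp4, and Plin1 was at ranks 11119 and 10460. These distances describe these arrays and carry no test.

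**Figure D5:**
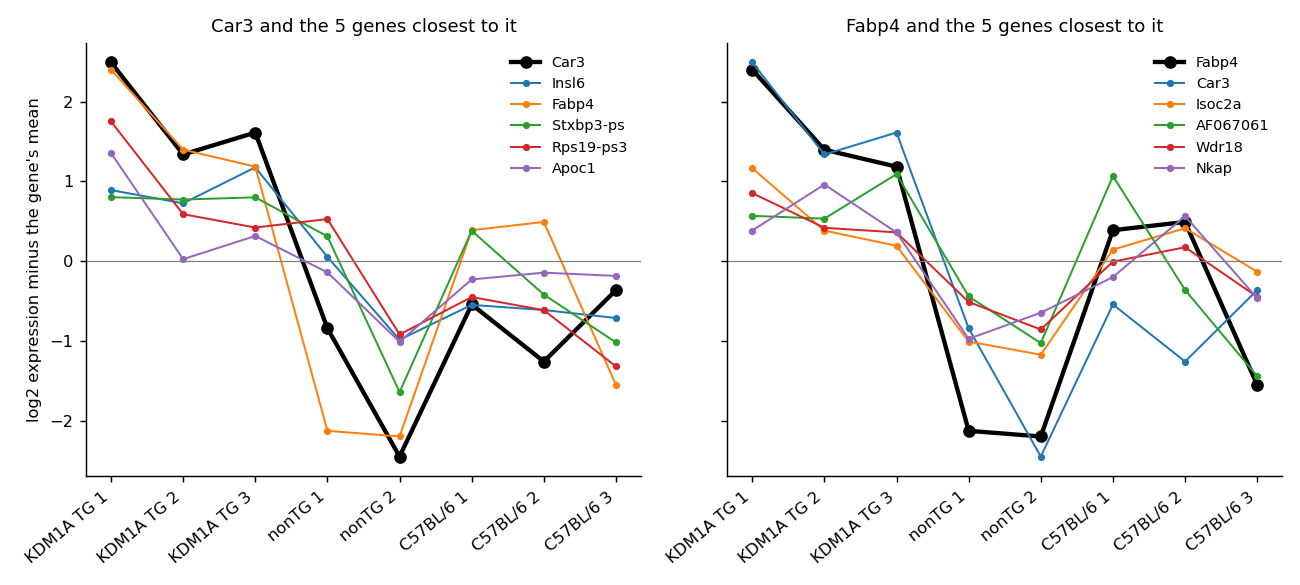
Log2 expression minus each gene's own mean (vertical axis) in the 8 arrays (horizontal axis), for Car3 (left) and Fabp4 (right) in black and the 5 tested genes closest to each. The lines only link the points of a gene, and Car3 and Fabp4 differ most in C57BL/6 replicates 2 and 3 and in nonTG replicate 1.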

How the data were processed

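The 10 genes, the lists and the tests were chosen with earlier results of these data known. The authors deposited log2 expression values, 1 per probeset and array. Tools named by the submitters' processing notes are limma, RMA, oligo and R 3.1.0, with no roles, and the background correction is not given in the sources. Values spanned 0.12 to 12.36, array medians lay at 2.73 to 2.86, and arrays correlated at 0.889 to 0.967. Interquartile ranges were 2.38 and 2.60 in KDM1A TG replicates 1 and 3 and 1.87 to 2.09 elsewhere.

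Of 22961 probesets, 15745 carried 1 symbol in the platform annotation, 1320 several and 5896 were unnamed here, and 15621 were found by gene identifier in RefSeq (GRCm38.p6, used for names and gene order). A model of group means over the 8 arrays was fitted in limma 3.58.1 (R 4.3.3; lmFit, then eBayes). The two-sided p-values were adjusted by Benjamini-Hochberg across 11444 genes, and the fit was checked on simulated data. Car3 and Fabp4, chosen on these contrasts, got no test. Genes named are the 10, the smallest p of each pathway list (up to 3 per comparison), called list genes, the first genes of marker lists and the 5 genes closest to Car3 and to Fabp4, leaving out predicted genes, small RNAs and receptor families. Myh4, Tek, Flt1 and Dppa3 are named as list members at the ends of their list's levels. Alternatives covered the filter, scaling, arrays in the fit, replicate number, variance model, array weights, probesets and leaving out each array.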

Additional observations from a re-analysis of the deposited data

Results flagged for a closer look

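Car3 and Fabp4 are listed here because every KDM1A TG array lay above, and every nonTG array below, the C57BL/6 mean. Their log2 changes from C57BL/6 were 2.53 in KDM1A TG and -0.92 in nonTG for Car3, and 1.88 in KDM1A TG and -1.94 in nonTG for Fabp4. The difference between the groups was not tested, since both genes were chosen for it, and both changes share the C57BL/6 arrays. No group had 4 or more arrays, so single arrays were not screened against their group.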

How the results depend on the processing

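Car3 and Fabp4 kept the sign of each change under all 20 alternatives, but both were chosen for these signs, so this is a description. Several alternatives, such as the filter and the variance model, cannot alter a log2 change. Sizes did move: Fabp4 in KDM1A TG against C57BL/6 went from 1.88 to 1.03 with the oviduct marker covariate. Car3 in nonTG against C57BL/6 ran from -1.73 to -0.12 leaving out 1 array. Of the 83 genes called for KDM1A TG against C57BL/6, counts became 138 without a filter, 53 with a filter at the 50th percentile, 5 after quantile normalization, 5 after cyclic loess, 151 after median centring, 128 with trend and robust variance, 1694 with array weights, 3 when the mean of the oviduct markers was a covariate, 1 with KDM1A TG replicates 1 and 3 both left out, and 9 to 254 leaving out 1 array. That covariate and that pair of arrays were added after seeing the data. Of the 8 genes picked for function, 0 were called, and 2 (Fasn and Cidea) without a filter, 2 after median centring, 2 with trend and robust variance, 4 with array weights, and 0 to 2 leaving out 1 array. For nonTG against C57BL/6 the 15 calls became 44 without a filter, 9 at the 50th percentile, 1 after quantile normalization, 1 after cyclic loess, 6 with the arrays of the 2 groups, 30 with trend and robust variance, 47 with array weights, 5 with the covariate, 6 without that pair and 3 to 80 leaving out 1 array. For KDM1A TG against nonTG the 5 calls became 2 at the 50th percentile, 2 after quantile normalization, 2 after cyclic loess, 9 with trend and robust variance, 3 with array weights, 3 with the mean of all probesets, 3 with the covariate, 3 without that pair and 2 to 17 leaving out 1 array. The cause of these shifts was not tested.

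Some of the 8 genes picked for function changed sign, and 0 of the 8 had passed before any alternative was applied. For nonTG against C57BL/6, Plin1 (-0.03) turned to 0.0040 after quantile normalization, 0.0011 after cyclic loess, 0.010 after median centring and 0.019 with the covariate, and Retn (-0.02) to 0.019, 0.0038 and 0.015 under the 3 scalings. With the covariate Scd1 turned to 0.21 and Fasn to -0.56, and Lpl turned to 0.0085 with array weights. Leaving out 1 array gave -0.61 to 0.22 for Scd1, -0.59 to 0.39 for Lpl, -0.16 to 0.079 for Plin1 and -0.072 to 0.022 for Retn. For KDM1A TG against C57BL/6 it gave -0.00053 to 0.50 for Adipoq, and Cidea turned to -0.16 against nonTG without KDM1A TG replicates 1 and 3. Scaling moved the median of all genes for KDM1A TG against C57BL/6 from 0.18 to between 0.07 and 0.25, and Car3 then stood at 2.32, 2.23 and 2.61 and Fabp4 at 1.65, 1.63 and 1.96 after quantile normalization, cyclic loess and median centring.

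With the replicate block, 76, 23 and 4 genes were called in the 3 comparisons (83, 15 and 5 without it), 0 of the 8 genes passed, and for nonTG against C57BL/6 Lpl turned to 0.020 and Sult1d1 lost its call (1.55, adjusted p = 0.087). Deviations of same-numbered arrays correlated at -0.065, -0.378 and -0.114 between KDM1A TG and C57BL/6, 0.00725 and -0.252 between nonTG and C57BL/6, and 0.113 and 0.179 between KDM1A TG and nonTG, so the numbers were not taken as pairs.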

Other observations

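The genes that stand next to Car3 and Fabp4 in the RefSeq order were read too, chosen by position after the values of both genes had been seen. Car3 lies in a run of carbonic anhydrase genes, and Car2, next to it, had log2 changes of 1.43 in KDM1A TG and 1.27 in nonTG against C57BL/6 (adjusted p = 0.0534 and 0.315), the same sign in both where Car3 had 2.53 and -0.92. Car13, which lies 2 genes away on the other side, had 0.40 and 0.15 (adjusted p = 0.551 and 0.91). Fabp4 lies among other fatty acid binding protein genes. Fabp5, 3 genes away, had 0.68 in KDM1A TG and 0.85 in nonTG (adjusted p = 0.35 and 0.53), and Impa1, an inositol phosphatase gene 2 genes away on the other side, had 0.34 and 0.39 (adjusted p = 0.618 and 0.784). Pmp2 and Fabp9, which lie between Fabp4 and Fabp5, had means under the filter level and were not tested.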
